A study of Mus musculus with 6 samples.

Results

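The Slc25 genes encode the mitochondrial carrier family, and 38 of the 14008 entries with a gene symbol in the deposited table belonged to it, taken by their symbol alone (Slc25a followed by a number). Expression was measured in 6 libraries of retinal pigment epithelium (RPE), the pigmented layer that supports the photoreceptors, from inbred male C57BL/6J mice of 8 to 10 weeks. The groups were 3 libraries at circadian time CT23 and 3 at CT1, times separated by 2 h, with subjective dawn between them; all mice were of 1 strain, and neither a treatment nor the lighting before collection is given in the labels. The tissue was taken from the back of the eye together with choroid and sclera and was therefore enriched for RPE rather than pure. Each library pooled 2 RPE samples, and nothing in the labels says whether any of the pooled tissue was shared between libraries, so p-values measure only the spread between these libraries. Levels are in CPM, the authors' unit for reads of a gene scaled to the total reads of its library.

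Mitochondrial carriers are small proteins, most of them in the inner mitochondrial membrane, that exchange nucleotides, phosphate, organic acids, amino acids and cofactors between the cytosol and the matrix. They set which fuels mitochondria can oxidise and how ATP leaves them. The RPE is known for oxidising fatty acids from ingested photoreceptor outer segments and for passing glucose on to the photoreceptors, so its carriers for fatty acyl groups, shuttle metabolites and adenine nucleotides are of interest across the time of day when shed outer segments are taken up. The question was which of these genes differed between CT23 and CT1, and whether close relatives within the family did the same.

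The libraries held RNA of other eye tissues as well, and 6 of the 9 marker sums did not overlap between the times: lens and rod sums were higher in every CT23 library, and skeletal muscle, fibroblast and sclera, melanocyte and endothelial sums were lower. Totals were 12612330 to 13651486 reads, of which the listed genes took 12.7% to 32.3%. Crystallin genes of the lens took 61.2% and 58.7% of the listed reads in CT23 replicates 1 and 2, and 1.86% to 16.4% in the other libraries. All 10 RPE markers were listed, with sums of 863 to 1116 CPM at CT23 and 1091 to 1521 CPM at CT1. These sums overlapped, but all 10 markers had a negative log2 fold (CT23 minus CT1), with a median of -0.25. Summed over 10 of 10 listed markers each, rod photoreceptor genes lay at 956 to 1153 CPM at CT23 and 651 to 706 CPM at CT1, and skeletal muscle genes at 8.36 to 33.9 CPM at CT23 and 35.4 to 145 CPM at CT1. Fibroblast and sclera sums (10 of 10 markers listed) lay at 765 to 933 CPM at CT23 and 1009 to 1906 CPM at CT1, melanocyte sums (7 of 8) at 1702 to 2012 CPM at CT23 and 2269 to 2529 CPM at CT1, and endothelial sums (8 of 8) at 30.3 to 34.7 CPM at CT23 and 35.6 to 44.9 CPM at CT1. No listed marker was at 0 in any library. In pooled tissue of this kind, fewer cells of a type and less RNA per cell cannot be told apart.

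Promoter windows are shown for the members with the smallest p, Slc25a22, Slc25a25 and Slc25a24, none of which had an adjusted p under 0.05 in the main limma fit. RefSeq windows (GRCm38.p6) of 300 bases, from 250 before to 50 after a transcript start, were matched for 30 of the 38 members. Capitals mark each match on either strand to CACGTG (an E-box, the site bound by the clock activators), TGACGTCA (a cAMP response element), CCAAT or its reverse complement, TATAAA, TTATGTAA or TTACGTAA (D-boxes), or the core motif of NRF1, a regulator of mitochondrial genes. The Slc25a22 window is its second annotated start, the one with a CCAAT match (chr7:141435326-141435625, minus strand), and that of Slc25a24 holds no match (chr3:109122899-109123198, plus strand). For Slc25a25 the first annotated start (chr2:32451421-32451720, minus strand) and the third (chr2:32424017-32424316, minus strand) are both given, as the third alone holds a cAMP response element, starting at base -150 from the start.
Slc25a22, the second start: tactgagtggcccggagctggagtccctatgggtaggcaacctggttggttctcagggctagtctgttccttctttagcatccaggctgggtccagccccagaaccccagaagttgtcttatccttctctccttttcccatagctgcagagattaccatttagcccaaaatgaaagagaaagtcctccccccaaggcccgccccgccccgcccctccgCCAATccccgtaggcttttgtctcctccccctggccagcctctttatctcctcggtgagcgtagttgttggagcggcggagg
Slc25a24: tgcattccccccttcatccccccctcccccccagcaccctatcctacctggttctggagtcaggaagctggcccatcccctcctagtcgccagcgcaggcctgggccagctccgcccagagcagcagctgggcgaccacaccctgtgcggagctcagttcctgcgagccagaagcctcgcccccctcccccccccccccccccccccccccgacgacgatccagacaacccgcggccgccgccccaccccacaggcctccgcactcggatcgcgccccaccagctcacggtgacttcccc
Slc25a25, the first start: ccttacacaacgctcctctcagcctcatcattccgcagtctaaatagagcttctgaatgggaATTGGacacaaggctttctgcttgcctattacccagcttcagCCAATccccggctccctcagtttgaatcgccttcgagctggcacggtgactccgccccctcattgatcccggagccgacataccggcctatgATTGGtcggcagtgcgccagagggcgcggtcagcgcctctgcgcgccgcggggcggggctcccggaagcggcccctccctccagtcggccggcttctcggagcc
Slc25a25, the third start: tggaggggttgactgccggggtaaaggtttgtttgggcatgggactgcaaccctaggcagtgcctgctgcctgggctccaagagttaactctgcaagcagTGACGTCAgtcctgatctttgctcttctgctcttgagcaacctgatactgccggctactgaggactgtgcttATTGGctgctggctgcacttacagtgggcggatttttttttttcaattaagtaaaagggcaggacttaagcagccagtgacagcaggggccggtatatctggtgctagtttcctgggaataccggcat

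Over the family, 6 of 30 members with a window (20.0%) held an E-box, against 1110 of 9706 listed genes with a window (11.4%). They were Slc25a1, Slc25a13, Slc25a14, Slc25a15, Slc25a33 and Slc25a36, so the 3 members printed above were not among them. A cAMP response element was found in Slc25a25 and Slc25a36, which is 6.67% of the 30 members, against 3.61% of the listed genes. CCAAT was found in 17 members (56.7%) and in 42.6% of the listed genes. TATAAA, the NRF1 core motif and the D-boxes were in 0 of the 30 members, against 9.04%, 2.27% and 0.968% of the listed genes. No motif in this set contains another. A match describes letters in the window only.

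The family was dominated by a few genes. Because the library kit reads transcripts at their 3′ ends, CPM was not divided by transcript length, and levels are compared on the CPM scale only. Slc25a4, Slc25a3 and Slc25a5 together made up 52.0% of the family's summed mean CPM, with means over the 6 libraries of 98.9, 44.4 and 24.9 CPM. The next were Slc25a24 at 12.7, Slc25a51 at 12.5 and Slc25a39 at 11.4 CPM, neighbours whose ranges across libraries overlapped. At the other end, 6 members had a mean below 1 CPM and were not tested, and 32 members were tested. The smallest means just inside that limit were those of Slc25a15 (1.25 CPM) and Slc25a38 (1.47 CPM), and the largest just outside were those of Slc25a42 (0.974 CPM) and Slc25a29 (0.907 CPM). Between 4 and 1638 reads stood behind a member's value in a library. An unseen gene could be at up to 3 reads, or 0.220 to 0.238 CPM, by counting error alone.

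**Figure D1:**
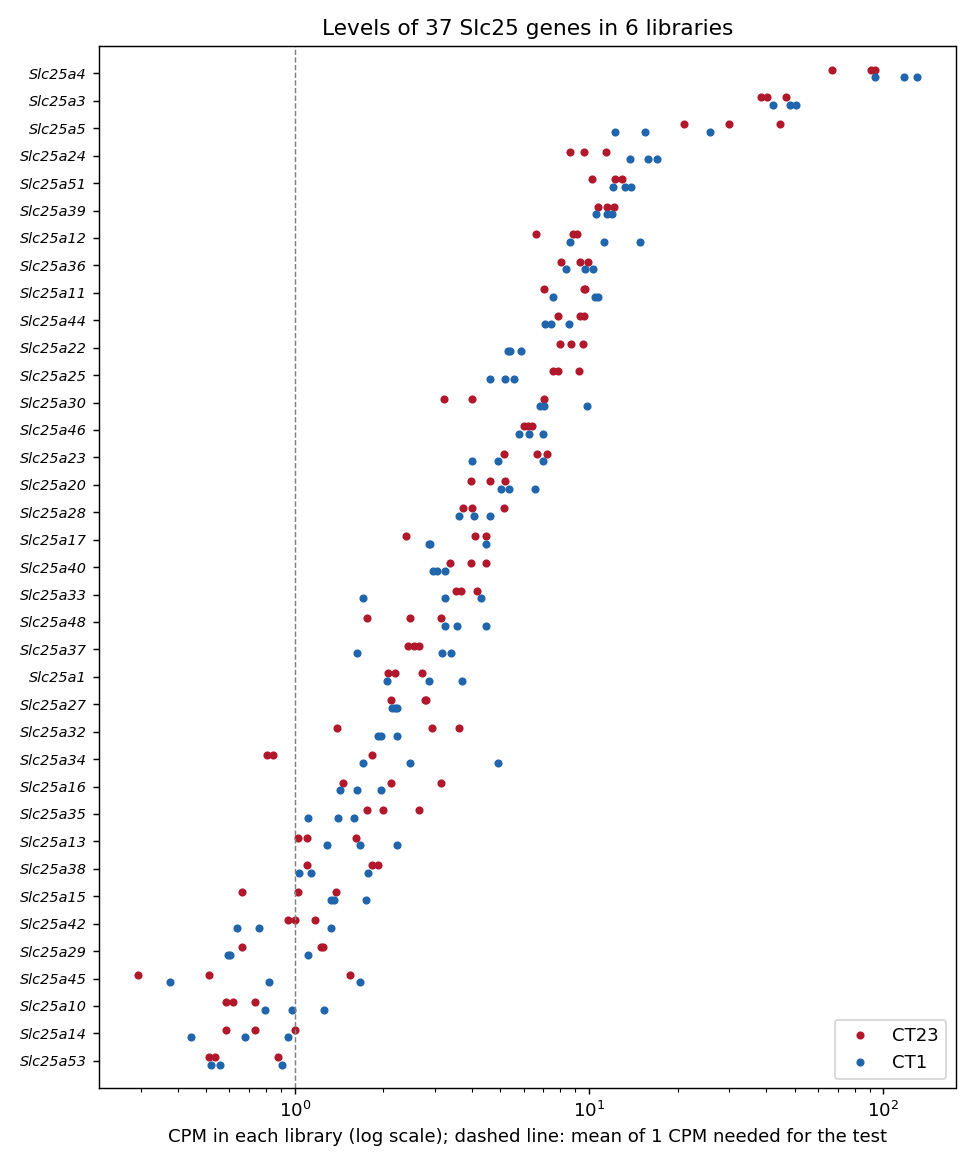
CPM of 37 of the 38 Slc25 genes (rows, ordered by mean) in the 3 CT23 libraries (red) and the 3 CT1 libraries (blue), on a log axis. The dashed line is the mean of 1 CPM needed for the test, and Slc25a4, Slc25a3 and Slc25a5 stand above 24 CPM on average while 6 genes average below 1 CPM.

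The smallest p of the family belonged to Slc25a22 and Slc25a25, with mean CPM at CT23 of 1.58 and 1.604 times that at CT1, and to Slc25a24, with 0.636 times. None of the members passed the adjusted threshold of 0.05. limma on log2(CPM + 1), adjusted over 11342 genes averaging 1 CPM or more, called 0 of the 32 members and 0 genes in all (0.0%). The smallest adjusted p over all genes was 0.0736. At an unadjusted p under 0.05 there were 9 members, 4 higher and 5 lower at CT23, or 28.1% of the 32. The same limit was met by 21.8% of all genes tested, with 12.4% higher and 9.39% lower at CT23, so the members' share lay near the background. Libraries of the 2 times did not overlap for 6 of the 32 members, or 18.8%, against 27.6% of all genes tested. Slc25a22, Slc25a25 and Slc25a24 had an adjusted p under 0.1, as did 4.38% of all genes. The family had no common direction: 16 members were higher and 16 lower at CT23, where 52.2% of all genes were higher, with a median log2 fold (CT23 minus CT1) of -0.0078, beside 0.014 over all genes tested. Summed over all 38 members, expression was 332, 323 and 272 CPM for replicates 1, 2 and 3 of CT23, against 306, 370.0 and 337 CPM for those of CT1, so the sums overlapped.

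**Figure D2:**
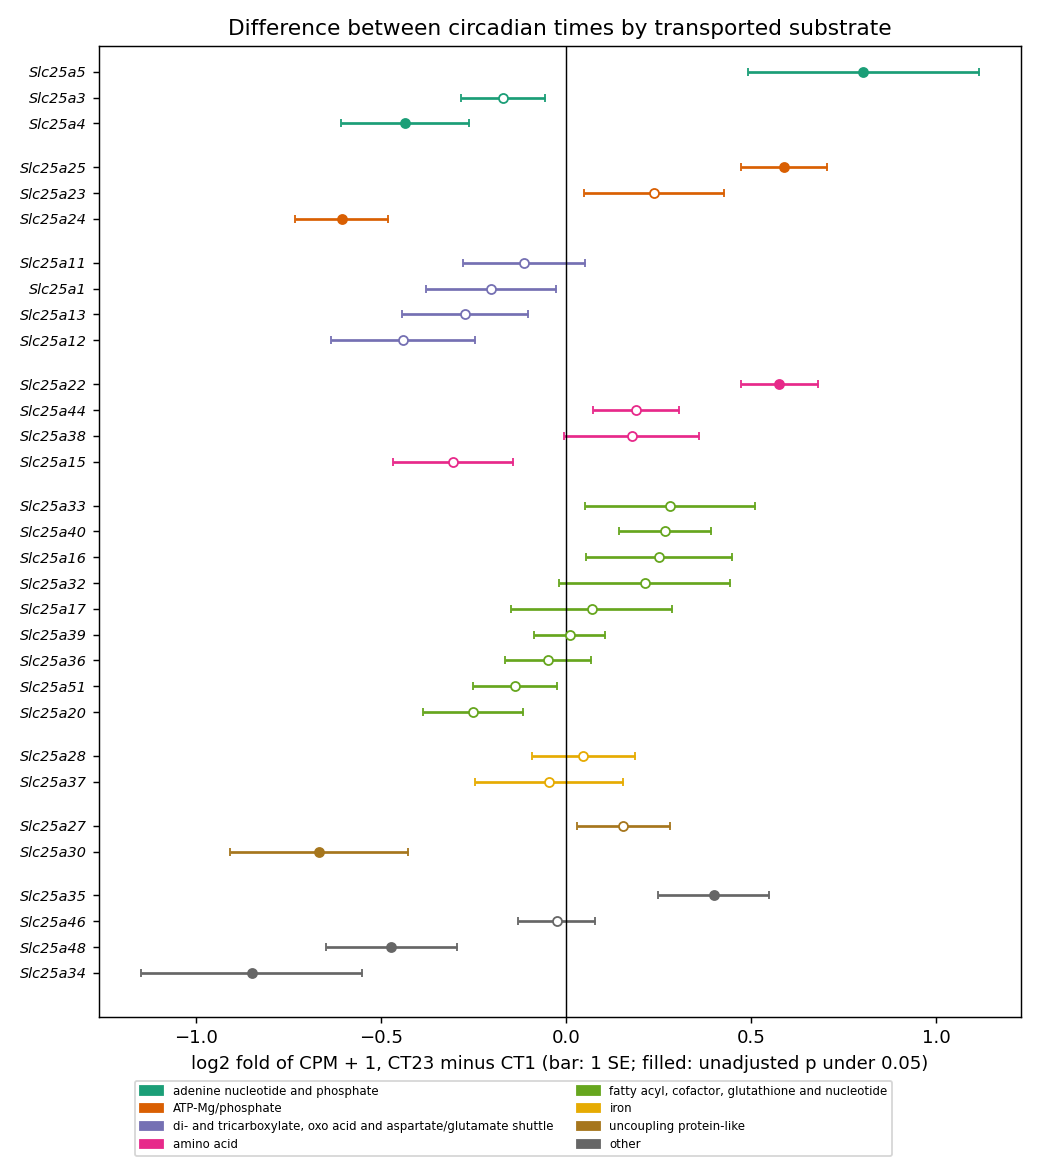
Log2 fold of CPM + 1 (CT23 minus CT1, horizontal axis) for 31 of the 32 tested members, grouped and coloured by substrate, with bars of 1 standard error and filled points for an unadjusted limma p under 0.05. The 15 genes right of 0 and the 16 left of it are spread over most substrate groups, and all 4 tested carriers of the organic acid and shuttle group lie left of 0.

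Values by library are listed in the order of replicates 1, 2 and 3. Adenine nucleotide and phosphate carriers supply the ATP synthase. Slc25a4 (mm10 chromosome 8, 46206797 to 46211284, minus strand) encodes the ADP/ATP translocase that dominates in heart and skeletal muscle. It was at 94.0, 90.9 and 67.2 CPM in the CT23 libraries, against 93.9, 129.9 and 118 CPM in the CT1 libraries. CT23 replicate 1 and CT1 replicate 1 were nearly equal, so the groups overlapped. Its log2 fold was -0.44 (SE 0.172, limma adjusted p = 0.197). Slc25a5 (chromosome X, 36795651 to 36798807, plus strand), the translocase of most other and of growing tissues, was at 44.7, 30.0 and 21.0 CPM in the CT23 libraries, against 15.6, 25.8 and 12.2 CPM in the CT1 libraries. CT1 replicate 2 lay above CT23 replicate 3, so this gene overlapped as well, with a log2 fold of 0.80 (SE 0.312, limma adjusted p = 0.192). The annotation also holds a processed pseudogene copy of Slc25a5, and no source used here says how reads shared with such copies were handled. Slc25a3, which imports phosphate and copper, was at 40.2, 46.6 and 38.5 CPM in the CT23 libraries and 42.4, 50.7 and 48.2 CPM in the CT1 libraries, which overlapped (log2 fold -0.17).

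The proportion of the 2 translocase genes did not overlap between the times. The ratio of Slc25a5 to Slc25a4 within a library, which no library scaling can alter, was 0.475, 0.330 and 0.312 in the CT23 libraries, against 0.166, 0.198 and 0.104 in the CT1 libraries. Every CT23 library lay above every CT1 library, and the mean ratio was 0.372 ± 0.0896 at CT23 and 0.156 ± 0.0480 at CT1 (SD, n = 3 each). The ratio was chosen after its values were seen and was given no test. Summed skeletal muscle markers, with 10 of 10 listed, ordered the libraries much as Slc25a4 did: both had CT23 replicate 3 lowest and CT1 replicates 3 and 2 highest. This was not particular to muscle. Melanocyte sums had exactly the order of the muscle sums, and RPE sums too were lowest in CT23 replicate 3 and highest in CT1 replicate 2. The muscle sums were 33.9, 31.8 and 8.36 CPM in the CT23 libraries and 35.4, 145 and 105 CPM in the CT1 libraries. Summed lens markers, with 8 of 10 listed, were 107145, 103897 and 12288 CPM in the CT23 libraries and 817, 6797 and 8718 CPM in the CT1 libraries, and Slc25a5 too was highest in CT23 replicates 1 and 2. The part of these tissues in the ratio was not tested. Without CT23 replicates 1 and 2 the log2 fold of Slc25a5 was 0.29 and that of Slc25a4 was -0.74. In the library that remained, CT23 replicate 3, the ratio of 0.312 was above those of all 3 CT1 libraries. That library also had the lowest muscle sum of all (8.36 CPM) and a lens sum (12288 CPM) above those of all 3 CT1 libraries.

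**Figure D3:**
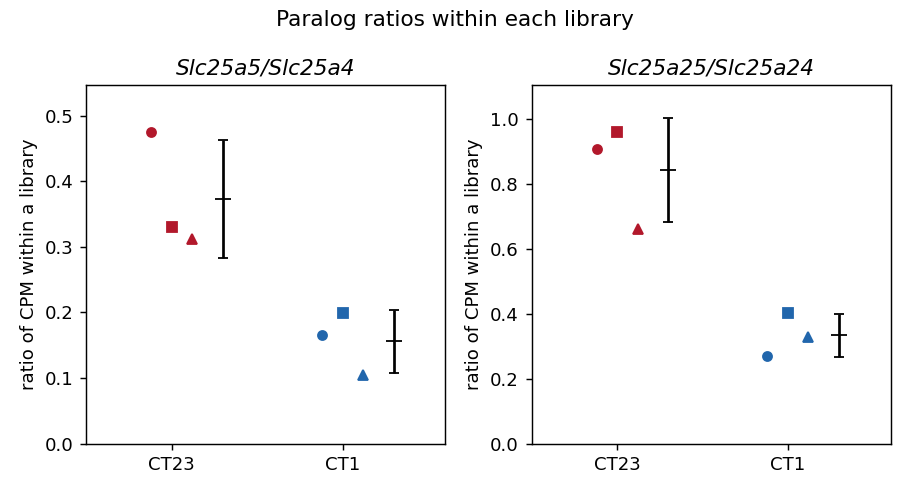
Ratio of CPM within each library for Slc25a5 over Slc25a4 (left) and Slc25a25 over Slc25a24 (right), at CT23 (red) and CT1 (blue). Circles, squares and triangles are replicates 1, 2 and 3, and the black bar is the mean with 1 SD. In both panels the lowest CT23 library (0.312 and 0.660) lies above the highest CT1 library (0.198 and 0.402).

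The calcium-regulated ATP-Mg/phosphate carriers adjust the adenine nucleotide pool of the matrix, and 2 of the 3 listed were among the 3 members with the smallest p, in opposite directions. Slc25a25 (chromosome 2, 32414487 to 32451445, minus strand) stood at 7.84, 9.22 and 7.55 CPM in the CT23 libraries, against 4.61, 5.55 and 5.18 CPM in the CT1 libraries. All CT23 libraries were above all CT1 libraries. Its means were 8.20 ± 0.891 CPM (CT23) and 5.11 ± 0.475 CPM (CT1; mean ± SD, n = 3 each), a log2 fold of 0.59 (SE 0.116, limma adjusted p = 0.0736). Slc25a24 (chromosome 3, 109123149 to 109168457, plus strand) went the other way, at 8.64, 9.60 and 11.4 CPM in the CT23 libraries, against 17.0, 13.8 and 15.8 CPM in the CT1 libraries. Here all CT23 libraries were below all CT1 libraries, with means of 9.90 ± 1.42 CPM (CT23) and 15.5 ± 1.62 CPM (CT1; mean ± SD, n = 3 each). The log2 fold was -0.61 (SE 0.126, limma adjusted p = 0.0740). Slc25a23, the remaining carrier of this kind, was at 7.18, 6.68 and 5.13 CPM in the CT23 libraries and 4.91, 6.98 and 3.999 CPM in the CT1 libraries. Those groups overlapped, with a log2 fold of 0.24 that turned to -0.010 without CT23 replicates 1 and 2.

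Summed over the 3 genes, ATP-Mg/phosphate carriers overlapped between the times, at 24.4 ± 0.959 CPM (CT23) and 26.0 ± 0.809 CPM (CT1; mean ± SD, n = 3 each). The ratio of Slc25a25 to Slc25a24 was 0.907, 0.960 and 0.660 in the CT23 libraries, against 0.271, 0.402 and 0.327 in the CT1 libraries, and the libraries did not overlap. This ratio too was chosen after its values were seen and was given no test. Ratios were also computed for other relatives. That of Slc25a40 to Slc25a39 did not overlap between the times. Those of Slc25a23 to Slc25a24, Slc25a12 to Slc25a13, Slc25a28 to Slc25a37 and Slc25a33 to Slc25a36 overlapped. Summed markers of the ocular surface epithelium, 10 of 10 listed, were 630.3, 939 and 1354 CPM in the CT23 libraries and 1771, 1085 and 1629 CPM in the CT1 libraries. CT23 replicates 1 and 2 were lowest and CT1 replicates 3 and 1 highest in both Slc25a24 and these markers, whose sums overlapped between the times. Fibroblast and sclera, melanocyte, endothelial and skeletal muscle sums were, like Slc25a24, lower in every CT23 library than in any CT1 library. Rod and lens sums were, like Slc25a25, higher in every CT23 library than in any CT1 library. The part of these tissues in the results for Slc25a24, Slc25a25 and their ratio was not tested. The call on Slc25a24 varied with the tool and with the genes adjusted over. DESeq2 on the recovered reads gave an adjusted p of 0.0483. It called 1.17% of 11342 genes but left the adjusted p of 5717 empty. edgeR's quasi-likelihood test gave 0.0826, and limma among genes averaging 5 CPM or more gave 0.0524. The unadjusted p were close, at 0.00105 (DESeq2), 0.00131 (limma) and 0.00181 (edgeR). With 1 library left out, limma adjusted p were 0.102 to 0.184.

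Among amino acid carriers, Slc25a22 (chromosome 7, 141429744 to 141437892, minus strand), a glutamate carrier that is prominent in neural tissue, had the smallest p of the family. It was at 9.52, 8.68 and 7.99 CPM in the CT23 libraries, against 5.29, 5.87 and 5.41 CPM in the CT1 libraries. Every CT23 library lay above every CT1 library, with means of 8.73 ± 0.766 CPM (CT23) and 5.52 ± 0.306 CPM (CT1; mean ± SD, n = 3 each). The log2 fold of 0.58 (SE 0.104) had a limma adjusted p of 0.0736, which did not pass. Among 4723 genes averaging 5 CPM or more its limma adjusted p was 0.0489, where 2.07% of genes were called, and with crystallin reads left out of the library totals limma gave both Slc25a22 and Slc25a25 an adjusted p of 0.0365, where 3.17% were. Over all alternatives its adjusted p ranged from 0.0365 to 0.586. Rod markers, 10 of 10 listed, all had positive log2 folds, with a median of 0.62, and their sums were 1153, 956 and 976 CPM in the CT23 libraries and 695, 706 and 651 CPM in the CT1 libraries. Lens sums, with 8 of 10 markers listed, were 107145, 103897 and 12288 CPM in the CT23 libraries. In the CT1 libraries they were 817, 6797 and 8718 CPM, so they too did not overlap. The part of rod or lens RNA in the result was not tested. With CT23 replicates 1 and 2 left out the log2 fold of Slc25a22 was 0.46. In the remaining CT23 library, replicate 3, the rod and the lens sums were both above those of all CT1 libraries.

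The other tested amino acid carriers had smaller log2 folds. Slc25a44, a carrier of branched-chain amino acids, was at 9.60, 9.30 and 7.85 CPM in the CT23 libraries, against 7.10, 8.56 and 7.40 CPM in the CT1 libraries, which overlapped (log2 fold 0.19). Slc25a15, the ornithine carrier that links mitochondria to the urea cycle, was at 0.659, 1.38 and 1.03 CPM in the CT23 libraries, against 1.36, 1.74 and 1.33 CPM in the CT1 libraries. CT23 replicate 2 lay inside the CT1 range (log2 fold -0.30). Slc25a38, which imports glycine for haem synthesis, had a mean of 1.47 CPM over the libraries and a log2 fold of 0.18. Limma adjusted p for these genes were 0.308 to 0.599.

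**Figure D4:**
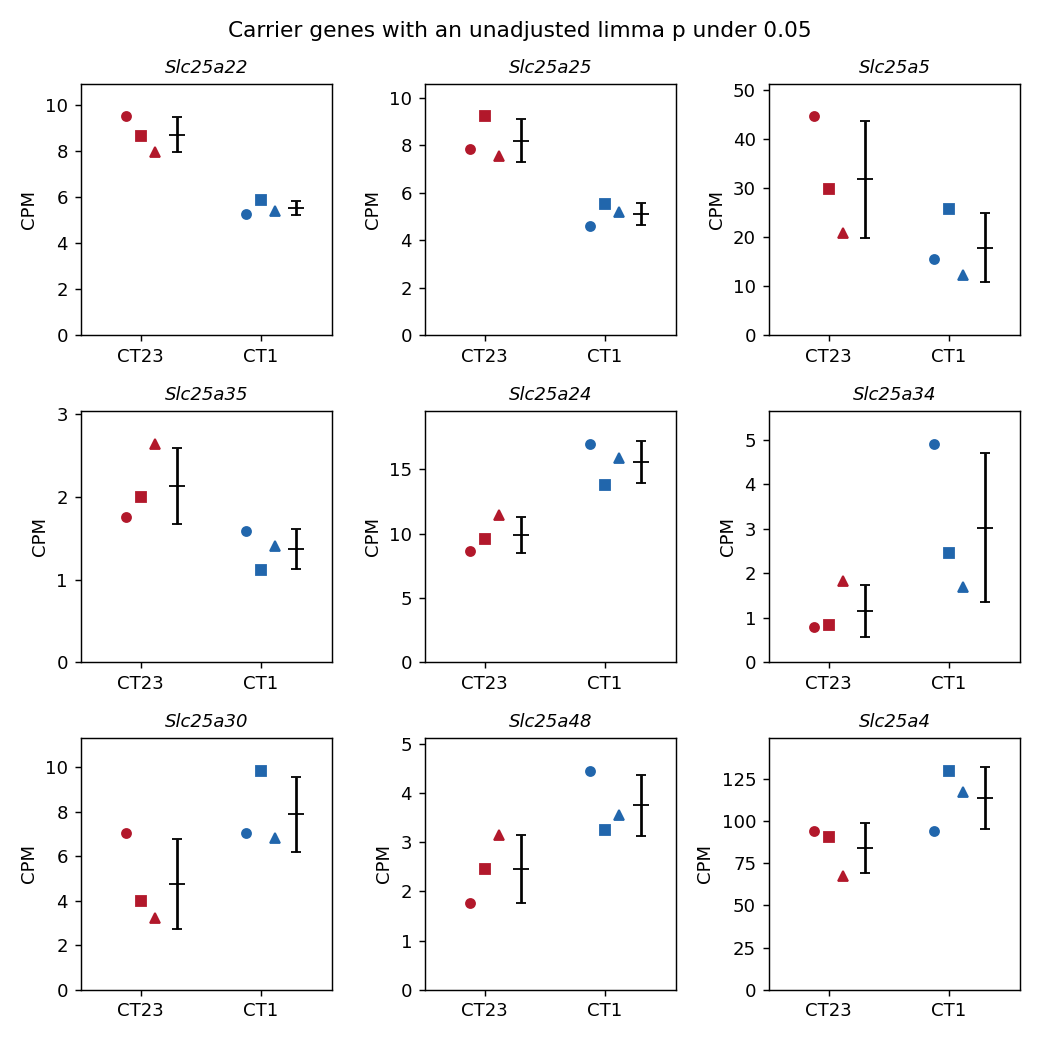
CPM (vertical axis, from 0) at CT23 (red) and CT1 (blue) for the 9 members with an unadjusted limma p under 0.05. Circles, squares and triangles are replicates 1, 2 and 3, and the black bar is the mean with 1 SD. Slc25a22, Slc25a25 and Slc25a35 have all CT23 libraries above all CT1 libraries, Slc25a24 and Slc25a48 have all of them below, and the other 4 overlap.

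Carriers of organic acids and of the malate-aspartate shuttle, which brings reducing equivalents from the cytosol into mitochondria, had log2 folds of 1 sign, none of which passed. All 4 tested were lower at CT23 by their fitted log2 folds, with a median of -0.24, and 0 of the 4 had an unadjusted p under 0.05. Over all genes tested, 52.2% were higher at CT23. All 10 RPE markers were lower too (median log2 fold -0.25), as were 9 of 10 fibroblast and sclera, 5 of 7 melanocyte and 6 of 7 endothelial markers tested. All 10 rod and all 8 tested lens markers were higher. The part of these tissues in the carriers' log2 folds was not tested. Slc25a12, the aspartate/glutamate carrier of excitable tissues, was at 9.08, 8.83 and 6.60 CPM in the CT23 libraries, against 8.61, 11.3 and 15.0 CPM in the CT1 libraries. CT1 replicate 1 lay below CT23 replicates 1 and 2 (log2 fold -0.44, SE 0.194, limma adjusted p = 0.236), and the log2 fold was -0.25 without CT1 replicate 3 and -0.26 on totals without crystallin reads. Its relative Slc25a13 (citrin, the form of liver and other epithelia) was less abundant, with a mean of 1.48 CPM and a log2 fold of -0.27, or -0.14 without CT1 replicate 3. The ratio of Slc25a12 to Slc25a13 was 8.86, 5.48 and 6.00 in the CT23 libraries, against 6.71, 6.76 and 6.73 in the CT1 libraries, so the proportions of these paralogs overlapped. Slc25a1, the citrate carrier that feeds lipid synthesis, had a log2 fold of -0.20 (-0.053 without CT1 replicate 3 and -0.36 without CT1 replicate 2). Slc25a11, the oxoglutarate/malate carrier of the shuttle, had one of -0.11, which became 0.021 without CT23 replicate 3 (where 0.0353% of genes and 0 members were called) and 0.064 on totals without crystallin reads. Slc25a10, the dicarboxylate carrier, lay below the limit for testing at 0.586, 0.615 and 0.733 CPM in the CT23 libraries and 0.982, 0.793 and 1.26 CPM in the CT1 libraries, without overlap, as in 26.1% of all listed genes with no filter. In the unfiltered fit its log2 fold was -0.28 (limma adjusted p = 0.233), and it was singled out after its values were seen.

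Carriers of fatty acyl groups, cofactors, glutathione and nucleotides had closely similar sums at the 2 times. Of 10 tested members, 7 were higher and 3 lower at CT23 by their log2 folds, 0 had an unadjusted p under 0.05, and the group's sum was 56.1 ± 0.992 CPM (CT23) and 55.5 ± 1.26 CPM (CT1; mean ± SD, n = 3 each). Slc25a20, which brings acylcarnitines into the matrix for oxidation, was at 5.20, 4.61 and 3.96 CPM in the CT23 libraries, against 5.36, 6.58 and 5.04 CPM in the CT1 libraries. CT23 replicate 1 lay above CT1 replicate 3, and the log2 fold was -0.25 (SE 0.136, limma adjusted p = 0.317). From low to high the 6 libraries of Slc25a20 stood in the same order as the summed RPE markers. This match was picked after the values were seen, and the part of RPE RNA in it was not tested. Slc25a51, which imports NAD, was at 10.3, 12.3 and 13.0 CPM in the CT23 libraries and 13.3, 12.1 and 13.9 CPM in the CT1 libraries, with overlap (log2 fold -0.14).

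Slc25a39, needed for glutathione import, was at 11.5, 12.1 and 10.7 CPM in the CT23 libraries and 10.6, 11.97 and 11.6 CPM in the CT1 libraries. Its log2 fold was the nearest to 0 of the tested members, 0.0095 (SE 0.0961). Its close relative Slc25a40 was at 3.37, 4.46 and 3.96 CPM in the CT23 libraries, against 2.95, 3.25 and 3.04 CPM in the CT1 libraries. These did not overlap, with a log2 fold of 0.27 (SE 0.124) and a limma adjusted p of 0.253. Slc25a16, linked to coenzyme A transport, was at 3.15, 1.46 and 2.13 CPM in the CT23 libraries and 1.96, 1.43 and 1.63 CPM in the CT1 libraries, with overlap (log2 fold 0.25). The pyrimidine nucleotide carriers Slc25a33 and Slc25a36 had log2 folds of 0.28 and -0.048, and that of Slc25a33 was 0.0099 without CT1 replicate 3, which held 23 reads, and 0.49 without CT1 replicate 2. For Slc25a32, the mitochondrial folate and FAD carrier, and Slc25a17, the peroxisomal cofactor carrier, log2 folds were 0.21 and 0.069. That of Slc25a32 was 0.016 without CT23 replicate 2, 0.49 without CT23 replicate 1 and 0.13 without CT23 replicate 3. Slc25a42, a coenzyme A carrier, averaged 0.974 CPM and was not tested.

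The mitoferrins, which import iron, overlapped between the times. Slc25a28, the form of most tissues, averaged 4.29 ± 0.739 CPM (CT23) and 4.10 ± 0.486 CPM (CT1), and Slc25a37, the form of red cell precursors, 2.53 ± 0.111 CPM (CT23) and 2.74 ± 0.967 CPM (CT1; mean ± SD, n = 3 each). Their log2 folds were 0.047 and -0.046, with limma adjusted p of 0.870 and 0.914.

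Among relatives of the uncoupling proteins, Slc25a30 was at 7.03, 3.99 and 3.23 CPM in the CT23 libraries, against 7.03, 9.83 and 6.81 CPM in the CT1 libraries. CT23 replicate 1 matched the CT1 libraries while the other CT23 libraries lay below them (log2 fold -0.67, SE 0.241, limma adjusted p = 0.173). On leaving out single libraries, the log2 fold ranged from -0.94 to -0.47. Slc25a27, a carrier known from neurons, had a log2 fold of 0.15, and Slc25a14, also of nervous tissue, averaged 0.732 CPM and was not tested. Uncoupling protein genes proper carry other symbols: Ucp2 was at 14.5 ± 1.65 CPM (CT23) and 14.8 ± 2.47 CPM (CT1; mean ± SD, n = 3 each).

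Of the 4 remaining members tested, 3 had an unadjusted limma p under 0.05, a limit met by 21.8% of all genes tested, and none passed. Slc25a34 was at 0.806, 0.845 and 1.83 CPM in the CT23 libraries, against 4.91, 2.46 and 1.70 CPM in the CT1 libraries. CT23 replicate 3 lay above CT1 replicate 3, and its log2 fold of -0.85 (SE 0.299, limma adjusted p = 0.165) was the most negative of the family. Between 11 and 65 reads stood behind these values, and the log2 fold was -0.43 without CT23 replicates 1 and 2. Slc25a48 was at 1.76, 2.46 and 3.15 CPM in the CT23 libraries, against 4.46, 3.25 and 3.55 CPM in the CT1 libraries. It did not overlap (log2 fold -0.47, SE 0.177, limma adjusted p = 0.180), but the gap between CT23 replicate 3 and CT1 replicate 2 was small, and the log2 fold was -0.19 without CT23 replicates 1 and 2.

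Slc25a35 was at 1.76, 2.00 and 2.64 CPM in the CT23 libraries, against 1.59, 1.11 and 1.41 CPM in the CT1 libraries, without overlap (log2 fold 0.40, SE 0.150, limma adjusted p = 0.181). The last 1000 bases of its annotated span overlap Rangrf on the other strand, and no source used here says whether counting used strand, so reads of the 2 genes cannot be told apart. The same holds for Slc25a23 and Gm17168. Slc25a46, an outer membrane member known for a part in mitochondrial shape, was at 6.20 ± 0.195 CPM (CT23) and 6.34 ± 0.589 CPM (CT1; mean ± SD, n = 3 each), with a log2 fold of -0.025. Slc25a29 (a carrier of basic amino acids in mammals), Slc25a45 and Slc25a53 were below the limit for testing, with means of 0.907, 0.867 and 0.652 CPM. Another 9 protein-coding genes with Slc25a symbols in the GENCODE M21 annotation were not analysed here.

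**Figure D5:**
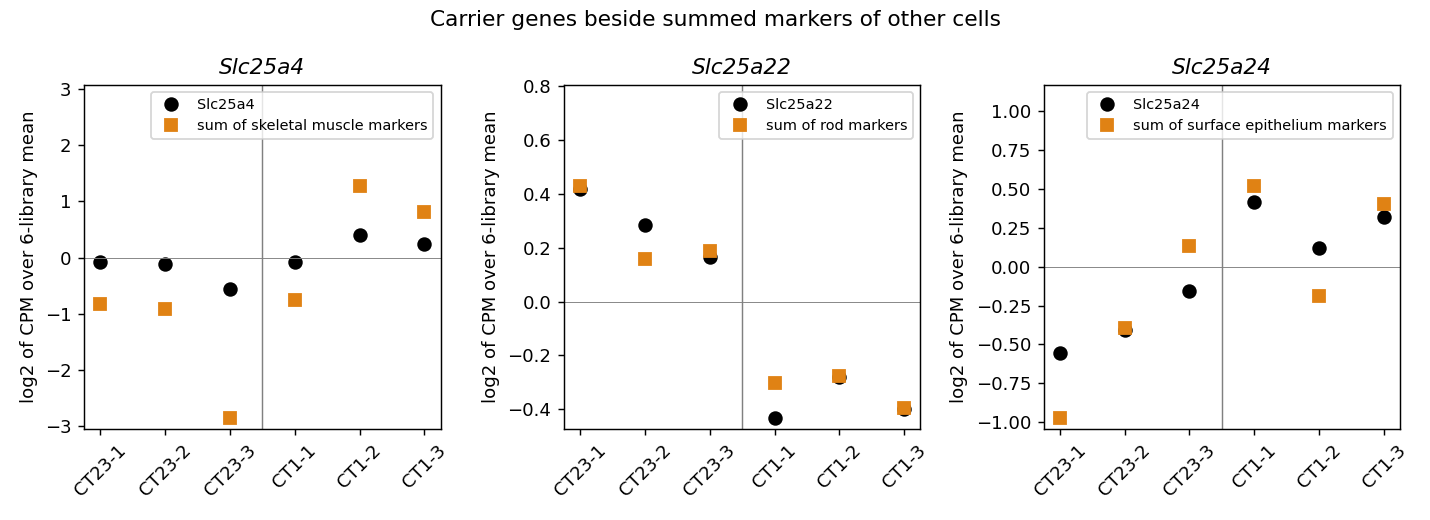
Log2 of CPM relative to the mean of all 6 libraries (vertical axis) in each library (horizontal axis), for Slc25a4, Slc25a22 and Slc25a24 (black circles) beside the summed markers of skeletal muscle, rods and surface epithelium (orange squares). The grey vertical line divides CT23 (left) from CT1 (right). In CT23 replicate 3 the muscle sum is lowest (8.36 CPM), as is Slc25a4 (67.2 CPM), rod sums and Slc25a22 are higher in every CT23 library, and the pairs were chosen after their values were seen. Of the sums not drawn, lens sums are also higher in every CT23 library, and melanocyte and RPE sums are also lowest in CT23 replicate 3.

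Genes around the family gave no call either. Carriers enter mitochondria through the receptor Tomm70a and the small Timm chaperones. Of 13 import genes, 12 were listed and 11 tested, with 9 higher and 2 lower at CT23 by their log2 folds and a median of 0.15. Over all genes tested 52.2% were higher and the median was 0.014. Tomm70a was at 8.86, 10.4 and 9.61 CPM in the CT23 libraries, against 6.65, 6.82 and 8.22 CPM in the CT1 libraries, without overlap (log2 fold 0.37, SE 0.113, limma adjusted p = 0.130). Agk, a subunit of the inner membrane translocase for carriers, did not overlap either, at 1.98 ± 0.387 CPM (CT23) and 1.39 ± 0.317 CPM (CT1; mean ± SD, n = 3 each). Its limma adjusted p was 0.272. In all, 3 of the 11 tested import genes did not overlap, all higher at CT23. Of all genes tested, 16.3% did not overlap and were higher at CT23, and 27.6% did not overlap in either direction. Family members under other names were Mtch1 and Mtch2, outer membrane proteins, with log2 folds of -0.28 and -0.23, and Ucp2, at -0.023. Among 12 tested transporters of other families, 6 were higher and 6 lower by their log2 folds. An unadjusted limma p under 0.05 was met by 21.8% of all genes tested, with 12.4% higher at CT23. Among these 12 transporters 2 met it, both higher at CT23. These were Sfxn2 (5.63 ± 0.336 CPM, CT23, against 4.47 ± 0.268 CPM, CT1) and Sfxn4 (1.62 ± 0.151 CPM, CT23, against 1.01 ± 0.344 CPM, CT1; mean ± SD, n = 3 each), of the sideroflexins of the inner membrane. Their limma adjusted p were 0.180 and 0.187.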

How the data were processed

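RNA for the 6 libraries was made with a QuantSeq 3′ kit after removal of the front of the eye and the neural retina, per the labels' protocols. The submitters' processing notes name mm10, Bowtie2 2.1.0, HTSeq and edgeR 3.24.1 without roles. The deposited table gave CPM per library, and a log2 fold and a p-value that the authors computed and that were not used here. Dividing the deposited CPM by the value of 1 read gave whole numbers in 100% of cases (within 0.01 read), and these recovered reads served as counts. Among 14083 entries, the 75 without a gene name (0.0432% to 0.102% of listed reads) were dropped. limma 3.58.1 (R 4.3.3) with a mean-variance trend was fitted to log2(CPM + 1) of the 11342 genes averaging 1 CPM or more, on time alone, two-sided, with Benjamini-Hochberg adjustment at 0.05. Log2 folds are CT23 minus CT1 on that scale and understate changes of low genes. The alternatives were pseudocounts of 0.5 and 0.1, other filters, TMM scaling, totals without crystallin reads, edgeR 4.0.16 and DESeq2 1.42.0 on the recovered counts, a replicate block and left-out libraries. The tools were also run on simulated counts drawn without the tissue differences between libraries, so that run does not show how they perform on these libraries. Between libraries of 1 time the chi-square per gene was 4.92 to 86.5, above sampling noise, so none was treated as a copy. Symbols were matched to GENCODE M21 (mm10) for 13837 of 14002, and positions are counted from 1. Values in every library are given for the 8 tested members with the smallest p in each direction and the 6 with the highest mean, and for each related gene list the 2 with the smallest p are named. A single member counted in the totals is not reported here singly. The members and lists were chosen with earlier results of these data known. Erythrocyte marker sums (2 of 7 listed) were 108 to 149.9 CPM at CT23 and 91.7 to 139.7 CPM at CT1.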

Additional observations from a re-analysis of the deposited data

How the results depend on the processing

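Over all genes, limma called 0, and 2469 had an unadjusted p under 0.05. edgeR's quasi-likelihood test also called 0 genes and 0 members (2464 genes and 10 members at an unadjusted p under 0.05), and DESeq2 called 133 genes and 1 member, Slc25a24, lower at CT23. For 15 of the 32 members DESeq2 left the adjusted p empty. Among genes averaging 5 CPM or more limma called 98 genes and 1 member, Slc25a22, and the median log2 fold of the 16 members left was -0.081. On totals without crystallin reads, where the median over all genes was 0.17 in place of 0.014, it called 360 genes, 353 higher and 7 lower at CT23, and 2 members, Slc25a22 (0.75) and Slc25a25 (0.77). There the members' median was 0.15, below that of all genes, and the family's mean sum at CT23 minus CT1 became 20.2 CPM in place of -28.5 CPM. TMM scaling left 0 genes and 0 members called by limma, with a members' median of -0.027 and a difference in sums of -33.2 CPM. With 1 library left out the genes called ranged from 0 to 4 (the 4 without CT23 replicate 3), the members called stayed at 0, and their median ranged from -0.037 to 0.025.

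Of the 31 tested members reported singly, 21 kept their direction under all alternatives run and 10 did not. Taking crystallin reads out turned Slc25a11 (0.064), Slc25a51 (0.043), Slc25a3 (0.021), Slc25a46 (0.14), Slc25a36 (0.13) and Slc25a37 (0.098) positive. Slc25a39 turned negative with TMM (-0.011), edgeR (-0.0073), DESeq2 (-0.021) and without CT23 libraries 1 and 2 (-0.078), which also turned Slc25a28 (-0.10), Slc25a46 (0.011) and Slc25a23 (-0.010). With 1 library left out in turn, the log2 folds ranged from -0.064 to 0.12 for Slc25a28, -0.037 to 0.053 for Slc25a39, -0.063 to 0.28 for Slc25a17, -0.12 to 0.028 for Slc25a36, -0.28 to 0.092 for Slc25a37, -0.26 to 0.021 for Slc25a11 and -0.080 to 0.035 for Slc25a46. Leaving out 1 library also moved by over 1.5 times, with the sign kept, the log2 folds of Slc25a4 (-0.28 without CT23 replicate 3), Slc25a5 (0.53 without CT23 replicate 1), Slc25a34 (-0.53 without CT1 replicate 1), Slc25a20 (-0.15 without CT1 replicate 2), Slc25a51 (-0.045 without CT23 replicate 1), Slc25a15 (-0.17 without CT23 replicate 1) and Slc25a27 (0.25 without CT23 replicate 1). The ranges were 0.084 to 0.42 for Slc25a23, 0.058 to 0.44 for Slc25a16 and 0.089 to 0.33 for Slc25a38. The causes were not tested. Libraries of equal replicate number did not all deviate together (correlations of -0.25, 0.38 and -0.042), and CT23 replicate 3 correlated best with CT1 replicate 1 (0.77), so a pairing by number was not shown, and the labels give none. With the replicate number as a block 0 genes and 0 members were called (2480 and 9 at an unadjusted p under 0.05). Depth limits the low members, with 4 to 21 reads per library behind Slc25a45.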

Other observations

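Slc25a24 and Slc25a48 put the 6 libraries in exactly the same order: CT23 replicates 1, 2 and 3 from low to high, then CT1 replicates 2, 3 and 1. Slc25a11 and Slc25a12 of the malate-aspartate shuttle likewise shared 1 order, from CT23 replicate 3 at the low end to CT1 replicate 3 at the high end. Slc25a4 was highest in CT1 replicate 2, at 129.9 CPM, where the RPE markers (1521 CPM), melanocyte markers (2529 CPM) and skeletal muscle markers (145 CPM) were also highest. CT23 replicate 3, the CT23 library with the fewest crystallin reads, was lowest for Slc25a4, Slc25a3, Slc25a12, Slc25a36, Slc25a11, Slc25a30 and Slc25a20 among the tested members. It was also lowest in the RPE marker sum (863 CPM). These values were picked after they were seen and are given as descriptions.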
